A study of Mus musculus with 3 samples.

Results

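Small leucine-rich proteoglycans were followed through the stromal cells of the mouse calvaria, the roof of the skull, in a single-cell RNA experiment on a carcinoma that grows onto and into bone. The 9 genes, taken by symbol, were Dcn (decorin), Bgn (biglycan), Lum (lumican), Fmod (fibromodulin), Ogn (osteoglycin), Aspn (asporin), Omd (osteomodulin), Prelp and Podn (podocan), and all 9 were found among the 31053 genes of the count matrices. Every animal was a C57BL/6 mouse of 8 weeks. Calvaria that never bore a tumour gave the control library. The other libraries came from calvaria onto which HNM007 cells, a mouse carcinoma line, had been placed 1 week before, and from which the tumour had been cut away. In the scratch-negative library, called pre-invasive, the bone surface was intact. In the scratch-positive library, called invasive, a needle had first been drawn over the bone, which takes off the periosteum, the connective tissue sheath that holds many of the fibroblasts of bone. No scratched bone without tumour is among the 3 libraries, so scratching and invasion cannot be told apart. Each library mixed CD45+ and CD45- live cells in equal parts, which sets the proportions of the cell types.

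Small leucine-rich proteoglycans are secreted proteins whose leucine-rich repeats bind collagen fibrils. Most carry chondroitin, dermatan or keratan sulfate chains. They govern fibril thickness and spacing and hold growth factors such as TGF-beta in the matrix. In bone, biglycan, decorin, asporin and osteomodulin are products of osteoblasts and of the periosteum, and decorin is among the most abundant transcripts of fibroblasts in many tissues.

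The 3 libraries held 25511 barcodes, of which 22195 passed the filters (6179 control, 7590 scratch-negative and 8426 scratch-positive cells). Median depth was 8864, 11261.5 and 36437.5 unique molecular identifiers (UMIs, each a counted transcript molecule) per cell in that order. Clustering without the 9 genes and naming by other markers gave 1223 stromal cells in 12 states. Of them 897 were fibroblast-like, with 44 control, 453 scratch-negative and 400 scratch-positive cells at median depths of 5079.5, 28572 and 28082.5 UMIs. This class divided into 6 states that are called by leading genes and not by a cell type. Of them the Clec3b/Pi16 state alone had 3 or more fibroblast markers with at least 1 among its 10 leading genes. The others belong to the class through the larger cluster that most of their cells came from. The markers detected in the Matn4/Sfrp2 state were Lepr, Ebf3 and Igfbp4, which are on the list of marrow reticular cells, and the Actg2/Cnn1 state was led by Mcpt8, a basophil marker, with granzyme and smooth muscle genes below it. There were 50 barcodes shared between libraries, carried by 8 of the stromal cells. Each group is 1 library, and the labels do not give the number of mice in it. Differences between libraries were therefore not tested. Levels are counts scaled to the UMI total of a cell set (CPM), and since each UMI is 1 molecule read at its 3' end, CPM needs no length correction. Ratios carry an exact 95% interval that covers counting error only, not variation between mice. A gene is written as higher or lower when the ratio reached 1.5-fold and the interval lay on 1 side of equality, with 10 or more UMIs in both libraries together.

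The genes lie in groups on the mouse genome (GRCm38). Dcn (chr10:97479609-97518143) and Lum (chr10:97565128-97572703) are neighbours 47.0 kb apart on the plus strand. Prelp (chr1:133910304-133921414, minus strand) and Fmod (chr1:134037254-134048277, plus strand) are 116 kb apart. Aspn (chr13:49544443-49567565), Omd (chr13:49582462-49592822) and Ogn (chr13:49608046-49624501) follow one another on the plus strand with gaps of 14.9 and 15.2 kb and no other protein-coding gene between them. Podn (chr4:108014791-108096445, minus strand) overlaps Scp2 on the same strand, so the counting may have divided reads between them. Cenpp, on the minus strand, overlaps Aspn, Omd and Ogn, and Gm15851 lies antisense to Prelp. Whether the counting used strand is not given in the sources used here, so these counts are uncertain to that extent. Bgn stands alone at chrX:73483602-73495933. Promoter windows of 300 bases (250 before and 50 after the start site; RefSeq, GRCm38.p6) were given for 7 of the 9 genes, all but Dcn and Lum. The windows of Bgn, the member at or above its control level in fibroblast-like cells of tumour-bearing calvaria, and of the 3 chromosome 13 neighbours, whose patterns part from one another below, are shown with any TATA box (TATAAA) or CCAAT box (CCAAT), on either strand, in capitals.
Bgn (chrX:73483351-73483650, plus strand): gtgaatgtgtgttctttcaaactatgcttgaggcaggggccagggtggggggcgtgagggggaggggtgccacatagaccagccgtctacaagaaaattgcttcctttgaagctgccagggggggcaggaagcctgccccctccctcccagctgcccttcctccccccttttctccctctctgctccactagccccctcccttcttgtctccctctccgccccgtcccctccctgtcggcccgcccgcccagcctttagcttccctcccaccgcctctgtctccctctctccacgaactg
Aspn (chr13:49544193-49544492, plus strand): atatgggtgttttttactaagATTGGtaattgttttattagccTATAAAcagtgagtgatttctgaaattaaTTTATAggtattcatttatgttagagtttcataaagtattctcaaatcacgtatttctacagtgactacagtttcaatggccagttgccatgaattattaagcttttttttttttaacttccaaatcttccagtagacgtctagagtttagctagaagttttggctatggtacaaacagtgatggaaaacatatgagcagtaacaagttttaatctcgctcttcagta
Omd (chr13:49582212-49582511, plus strand): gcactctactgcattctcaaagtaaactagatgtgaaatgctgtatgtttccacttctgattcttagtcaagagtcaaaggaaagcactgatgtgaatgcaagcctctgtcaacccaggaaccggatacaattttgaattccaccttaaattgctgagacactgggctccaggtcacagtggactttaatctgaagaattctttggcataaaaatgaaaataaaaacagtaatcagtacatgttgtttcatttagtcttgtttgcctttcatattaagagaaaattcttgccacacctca
Ogn (chr13:49607765-49608064, plus strand): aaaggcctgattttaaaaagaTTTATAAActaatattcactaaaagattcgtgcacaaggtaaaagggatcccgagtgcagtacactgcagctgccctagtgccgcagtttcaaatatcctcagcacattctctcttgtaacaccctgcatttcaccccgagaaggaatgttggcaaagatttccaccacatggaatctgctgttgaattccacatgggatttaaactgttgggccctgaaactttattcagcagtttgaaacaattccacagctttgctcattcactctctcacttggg
The Bgn window held neither motif, nor an AP-1 site (TGANTCA), and had a GC content of 63.7%, against a median of 52.7% over 32851 promoters. The Aspn window held 2 TATA boxes and 1 CCAAT box at a GC content of 31.0%. The Ogn window held 2 overlapping TATA boxes, 1 on each strand, at 42.3%, and the Omd window held no motif at 37.7%. Over all promoters 13.6% held a TATA box, 37.4% a CCAAT box and 7.81% an AP-1 site. These matches describe the letters of the windows and nothing of their use.

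Transcripts of the 9 genes were mostly stromal. Of 194615 UMIs in kept cells, 85.4% were in the 12 stromal states, with 93.3% in the control, 84.3% in the scratch-negative and 86.1% in the scratch-positive library. Sub-clusters that mixed stromal and immune transcripts (9, 148 and 61 cells) were left out, and held 8628 of all 68549 Dcn UMIs. Neutrophils, which should not make these matrix proteins, held a summed level of 2.90, 16.3 and 5.43 CPM in the 3 libraries. Tumour cells held 35.4 CPM in the scratch-negative and 10.9 CPM in the scratch-positive library. In the fibroblast-like class the summed level was 18082, 7168 and 3541 CPM.

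In fibroblast-like cells Dcn was the leading member in the control and Bgn in the scratch-positive library (the plot of class ratios). Dcn stood at 11983 CPM in the control, 2825 CPM in the scratch-negative and 827 CPM in the scratch-positive library. Bgn stood at 1532, 2757 and 1777 CPM in the same order. Decorin was thus 4.24-fold lower (interval 4.09 to 4.40) in scratch-negative and 14.5-fold lower (13.9 to 15.1) in scratch-positive than in control cells, while biglycan was 1.80-fold higher (1.63 to 1.99) and then 1.16-fold (1.05 to 1.28) the control level. Aspn, a close relative of both that has an aspartate-rich stretch in place of the sugar chain, was at 1084, 391 and 368 CPM. It was 2.77-fold and 2.94-fold lower in the tumour-bearing libraries, and these libraries differed from each other by a ratio of 0.942 (0.905 to 0.982).

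Lum, Fmod, Prelp and Omd were lower in both tumour-bearing libraries than in the control. Lum, which spaces collagen fibrils, was at 1429 CPM in control, 824 CPM in scratch-negative and 384 CPM in scratch-positive cells. Fmod, which binds collagen I and is abundant in tendon and cartilage, was at 470, 70.0 and 47.2 CPM, and 1 control cell held 53 of the 128 control UMIs. Prelp, a linker between basement membrane and collagen, was at 224, 90.4 and 27.2 CPM. Omd, a binder of bone mineral, was scarce in this class, at 40.4 CPM from 11 UMIs in the control and 6.25 and 7.77 CPM in the other libraries. Among the remaining members, Ogn was at 1165, 157 and 83.8 CPM and Podn at 154, 47.3 and 17.8 CPM. Ogn was thus 7.43-fold lower in scratch-negative and 13.9-fold lower in scratch-positive than in control cells.

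In scratch-negative over control cells 8 of the 9 members were lower, against 15.5% of 12798 genes tested, and 1 member, Bgn, was higher, against 6.42% of genes. In scratch-positive over control cells 8 members were lower, against 17.1% of 12328 genes, and none was higher, against 9.79%. In scratch-positive over scratch-negative cells 6 members (Dcn, Bgn, Lum, Ogn, Prelp and Podn) were lower, against 15.2% of 13605 genes, and none was higher, against 11.2%. The median log2 ratio of the members was -1.70, -3.04 and -0.90 in these comparisons, beside -0.13, -0.10 and 0.02 over all genes tested. The first pair of comparisons shares the control library. Control cells held 272209 UMIs, against 13444892 in scratch-negative and 11450399 in scratch-positive cells. A gene could thus be tested on UMIs of the tumour-bearing library alone, and was then hard to call. The members held from 11 (Omd) to 3262 (Dcn) control UMIs, so the shares and medians of all genes were not matched to them in count. The shares of all genes given below were not matched in count either.

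**Figure D1:**
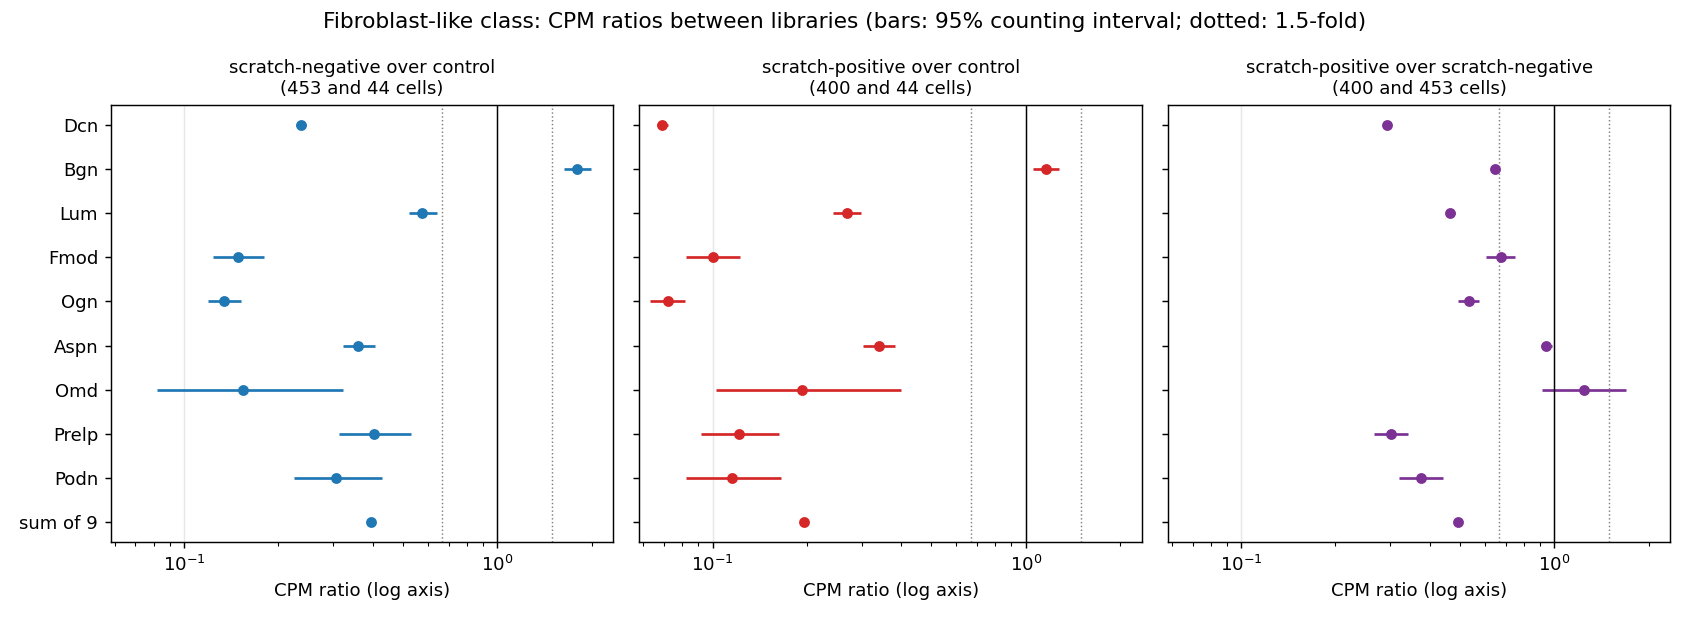
CPM ratios of the 9 genes and of their sum in fibroblast-like cells for each pair of libraries, on a log axis, with 95% counting intervals as bars, a solid line at equality and dotted lines at 1.5-fold. Every gene except Bgn lies left of equality in both comparisons with the control, and Aspn lies close to it between the tumour-bearing libraries.

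The libraries held different fibroblast states, and the class ratios moved with them. All 44 control cells came from the cluster led by Clec3b, Fmod and Mgp, whereas another cluster led by Crabp1, Gzmd and Tagln held 294 of 453 scratch-negative and 294 of 400 scratch-positive cells. The Clec3b/Pi16 state made up 45.5% of control, 14.6% of scratch-negative and 4.5% of scratch-positive cells, and the Matn4/Sfrp2 state 31.8%, 16.8% and 13.8%. The Serpinb2/Nos2 and Cxcl5/Cxcl9 states held no control cell, which allows a share of up to 8.04% each by the Clopper-Pearson interval. They made up 35.3% and 21.4% of scratch-negative cells, and 3.50% and 5.50% of scratch-positive cells. The Actg2/Cnn1 state made up 56.5% of scratch-positive cells and 3.75% of scratch-negative cells. With equal weight for each state that held 10 or more cells in both libraries, the summed ratios were 0.749 and 0.715 over the control and 0.883 between tumour-bearing libraries, in place of 0.396, 0.196 and 0.494. The count of lower members then was 1, 3 and 3 in place of 8, 8 and 6. Over the control only the Clec3b/Pi16 and Matn4/Sfrp2 states met the 10-cell rule. The other states of the class do not enter those ratios and counts. The part of state composition in the class ratios was not tested beyond these values. In the class sums, fewer cells of a state and less RNA per cell cannot be told apart.

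Each state had its own proteoglycan profile (the plot of levels by state). In the scratch-negative library, the only one with 10 or more cells in 11 of the 12 states, Dcn was highest in the Clec3b/Pi16 state at 9277 CPM, followed by the Matn4/Sfrp2 state at 5305 CPM. The Ostn/Alpl and Bglap osteoblast-lineage states came next at 4092 and 3987 CPM, with intervals that overlapped. The Serpinb2/Nos2 state was at 2761 CPM, the meningeal-like state at 2501 CPM, and the Cxcl5/Cxcl9, Actg2/Cnn1 and Prc1/Aspm cycling states between 1318 and 1513 CPM. Mural-like and marrow reticular-like cells were lowest, at 356 and 329 CPM, and did not differ beyond their intervals.

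Bgn varied least of the abundant members. Its scratch-negative levels ran from 756 CPM in mural-like cells to 3551 CPM in the Serpinb2/Nos2 state, where it overlapped the Matn4/Sfrp2 state at 3448 CPM. Aspn and Lum were both highest in the Ostn/Alpl state, at 2952 and 4042 CPM. Aspn was absent from the counts of marrow reticular-like and Bglap cells in the control and scratch-negative libraries (0 UMIs in 44, 30, 12 and 26 cells). In the scratch-negative library these zeros allow levels of up to 12.3 and 4.72 CPM. Lum was near the bottom in meningeal-like and mural-like cells, at 14.7 and 15.8 CPM.

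The rarer members marked narrower sets of cells. Fmod was at 661 CPM in the Matn4/Sfrp2 state and 623 CPM in the Ostn/Alpl state, against 0.395 CPM in the Serpinb2/Nos2 state. In the control, 71 shallow chondrocyte-like cells (median 949 UMIs) held Fmod at 598 CPM. Omd was at 542 CPM in Bglap cells, 347 CPM in Ostn/Alpl cells and 94.5 CPM in marrow reticular-like cells, and at 36.2 CPM or less in every other state with 10 or more scratch-negative cells. Ogn was at 978 CPM in the Clec3b/Pi16 state, 873 CPM in meningeal-like cells, 661 CPM in the Matn4/Sfrp2 state and 20.1 CPM in the Serpinb2/Nos2 state. Podn was at 271 CPM in the Clec3b/Pi16 state and 192 CPM in the Matn4/Sfrp2 state, and at 36.8 CPM or less elsewhere. Prelp was at 400 CPM in the Clec3b/Pi16 state, 214 CPM in marrow reticular-like cells and 204 CPM in the Matn4/Sfrp2 state. Of the 3 neighbours on chromosome 13, Aspn was thus highest in Ostn/Alpl cells and Omd in Bglap cells. Ogn was highest in the Clec3b/Pi16 state and meningeal-like cells, whose intervals overlapped, and in the control and scratch-positive libraries its highest level was in the Matn4/Sfrp2 state. These orders describe 1 library and were not tested.

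**Figure D2:**
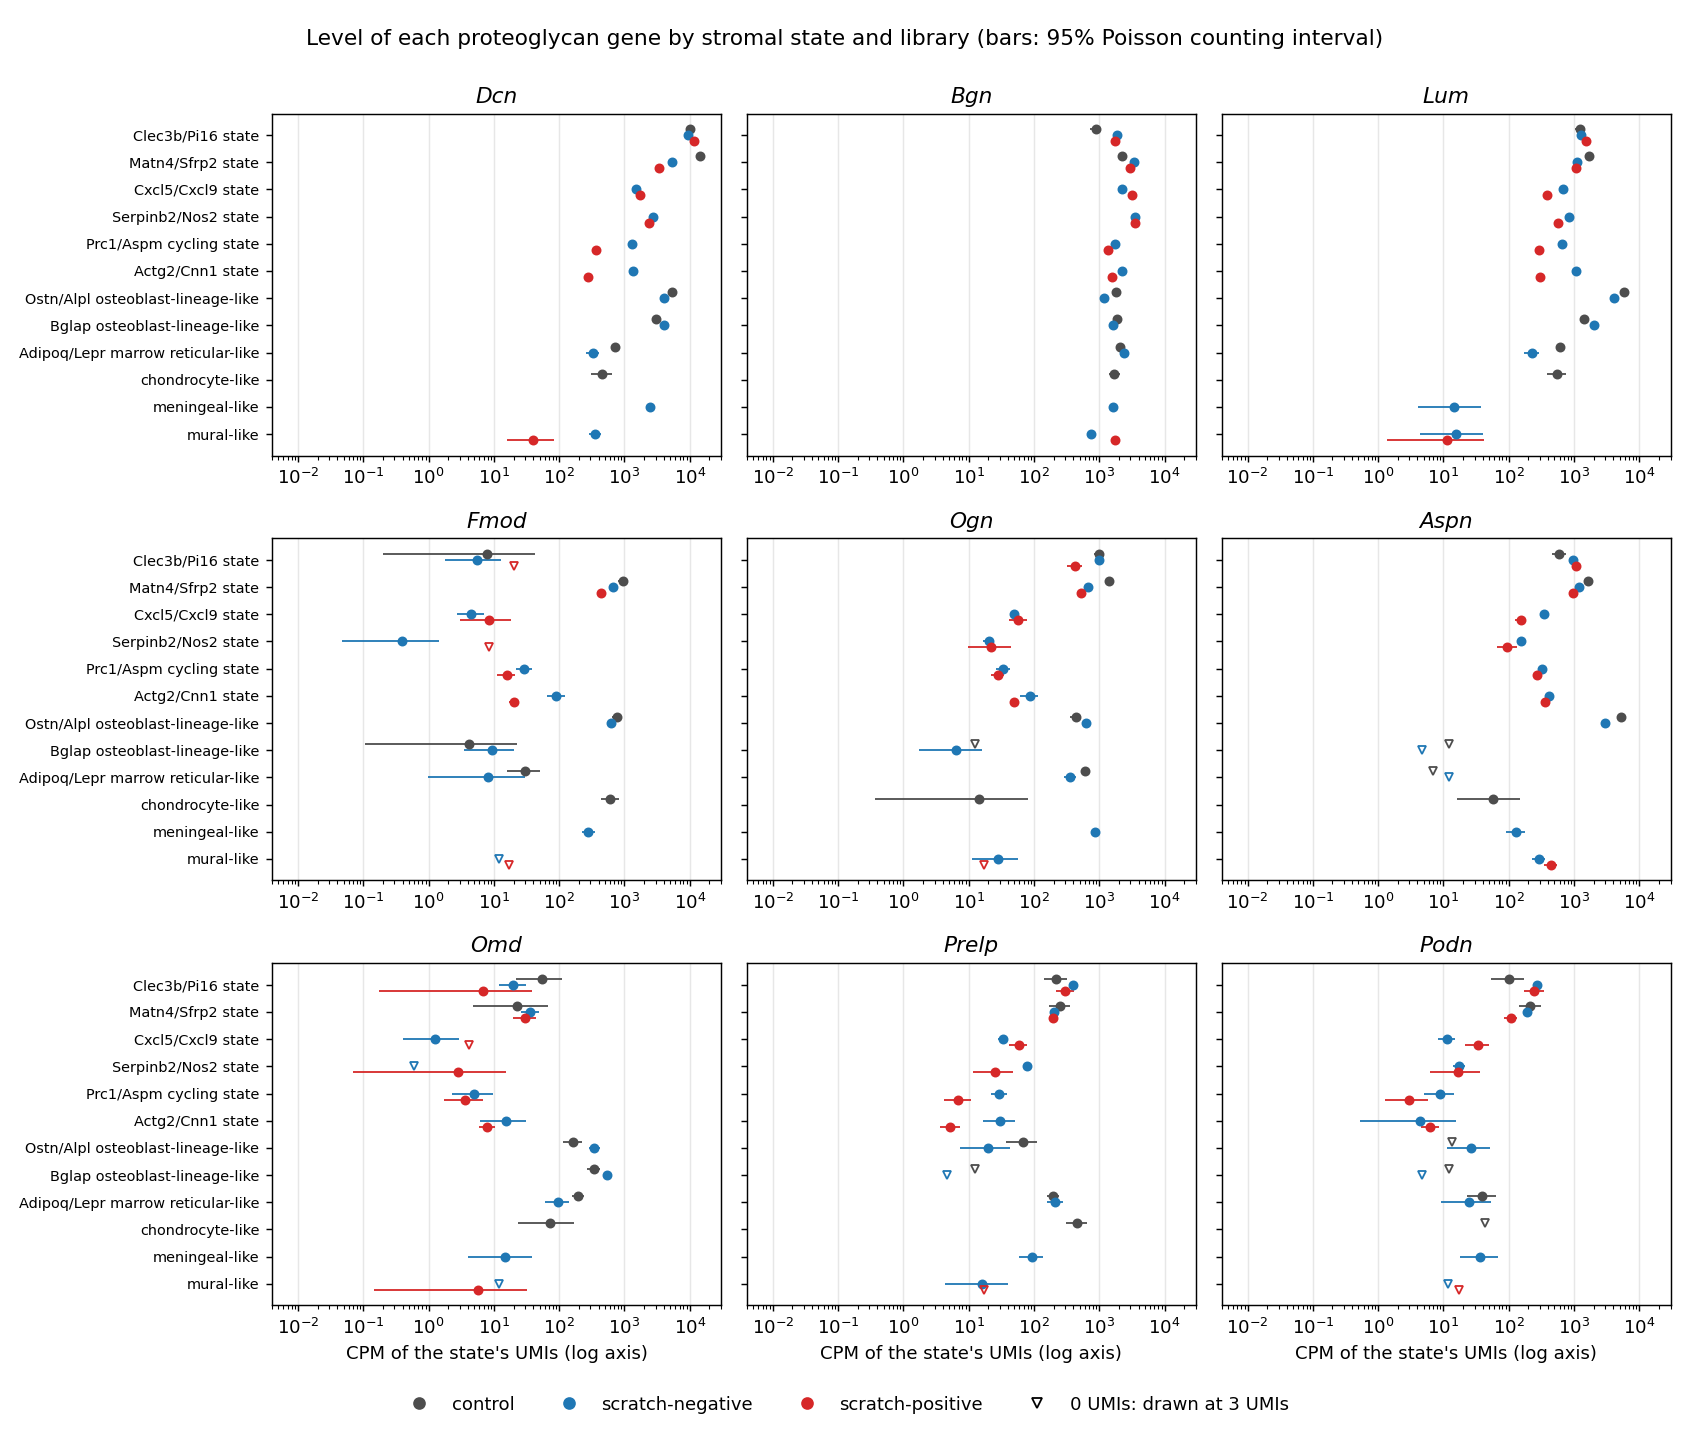
CPM of each gene on a log axis in the 12 stromal states, by library, for state and library combinations of 10 or more cells, with 95% Poisson counting intervals as bars and open triangles at the level that 3 UMIs would give where the count was 0. Bgn points lie close together across states, whereas those of Fmod, Omd and Podn are spread much more widely.

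Within the Clec3b/Pi16 state Dcn and the summed level lay within 1.5-fold of the control. Dcn was at 10158 CPM in 20 control cells, 9277 CPM in 66 scratch-negative cells and 11592 CPM in 18 scratch-positive cells, and the summed level at 14237, 15059 and 16942 CPM. In scratch-negative over control cells no member was lower, against 5.73% of 8254 genes, and 4 members were higher, against 5.02%. These were Bgn (880 against 1866 CPM, 2.12-fold, 1.75 to 2.59), Aspn (592 against 955 CPM), Prelp (218 against 400 CPM) and Podn (101 against 271 CPM). In scratch-positive over control cells 3 members (Bgn, Aspn and Podn) were higher, against 8.47% of 4122 genes, and 1 was lower, against 8.01%. The lower member was Ogn, at 425 CPM in scratch-positive, 989 CPM in control and 978 CPM in scratch-negative cells. Between the tumour-bearing libraries Ogn was again the 1 lower member, against 4.42% of 8283 genes, and no member was higher, against 5.06%. The control values rest on few cells, since 1 cell held 68 of 113 Bgn UMIs and 7 of 13 Podn UMIs came from 1 cell.

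In the Matn4/Sfrp2 state decorin was lower in both tumour-bearing libraries. It was at 14520 CPM in 14 control cells, 5305 CPM in 76 scratch-negative cells and 3422 CPM in 55 scratch-positive cells, or 2.74-fold and 4.24-fold lower. In scratch-negative over control cells Dcn, Lum and Ogn were lower, 3 members against 5.99% of 8949 genes, and Bgn alone was higher, at 3448 against 2254 CPM, against 4.06%. In scratch-positive over control cells 6 members (Dcn, Lum, Fmod, Ogn, Aspn and Podn) were lower, against 8.37% of 7624 genes, and none was higher, against 5.84%. In scratch-positive over scratch-negative cells Dcn, Fmod and Podn were lower, 3 members against 6.77% of 9792 genes, and none was higher, against 4.27%. Here too 1 control cell carried much of some counts, with 504 of 1907 Dcn UMIs, 53 of 125 Fmod UMIs and 14 of 28 Podn UMIs.

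**Figure D3:**
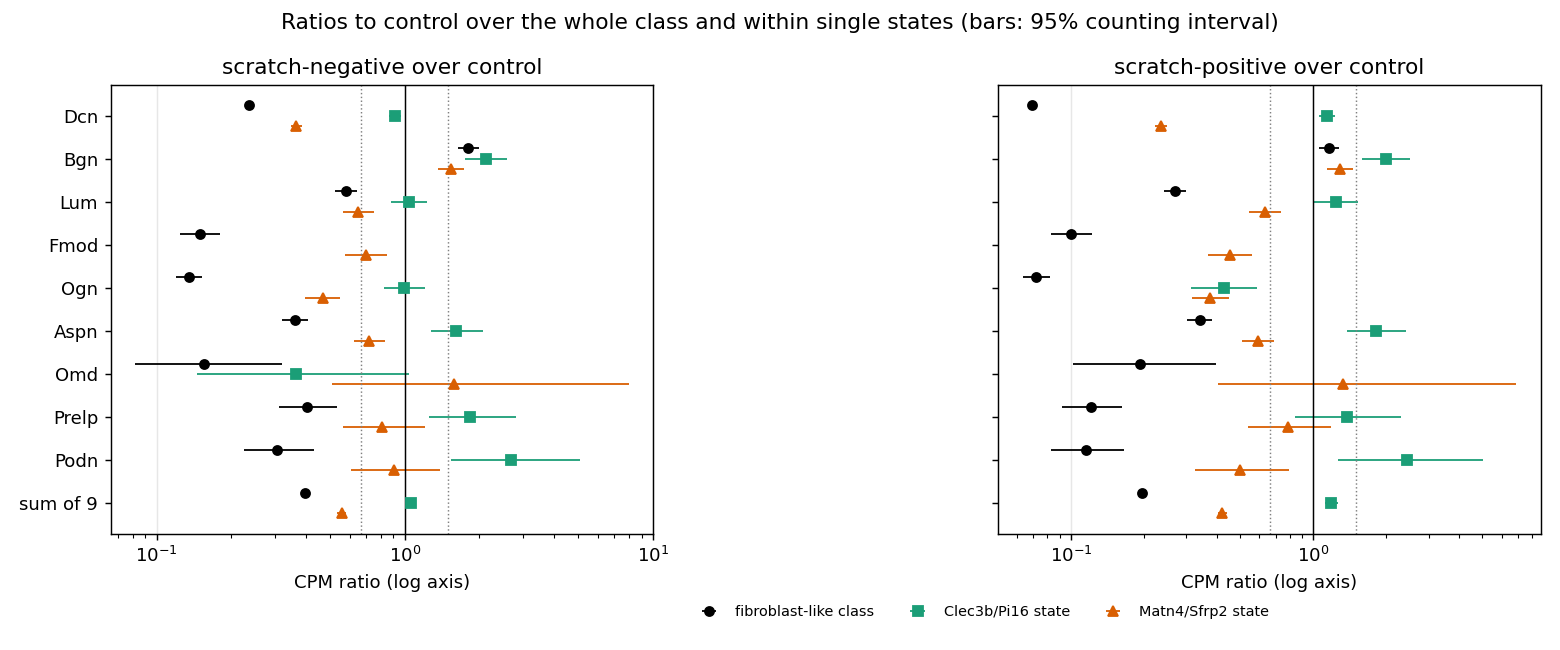
CPM ratios to the control on a log axis for the 9 genes and their sum, over the whole fibroblast-like class (circles), the Clec3b/Pi16 state (squares) and the Matn4/Sfrp2 state (triangles), with 95% counting intervals as bars. Dcn lies near equality in the Clec3b/Pi16 state and well left of it in the class and in the Matn4/Sfrp2 state.

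The states without control cells in number could be compared only between the tumour-bearing libraries. In the Actg2/Cnn1 state, with 226 scratch-positive and 17 scratch-negative cells, 5 members were lower, against 4.51% of 11238 genes, and none was higher, against 5.49%. Dcn was at 277 against 1373 CPM, Lum at 303 against 1067 CPM and Fmod at 20.4 against 90.4 CPM. Ogn was at 49.99 against 86.1 CPM and Prelp at 5.25 against 30.1 CPM, with 8 of the 14 scratch-negative Prelp UMIs in 1 cell. In the Prc1/Aspm cycling state 5 members (Dcn, Lum, Fmod, Prelp and Podn) were lower, against 9.7% of 10757 genes, and none was higher, against 5.34%, with Dcn at 372 against 1318 CPM. The Cxcl5/Cxcl9 state showed both directions. There Lum and Aspn were lower, 2 members against 6.7% of 10805 genes. Prelp and Podn were higher, 2 members against 3.94%, while Dcn was at 1741 against 1513 CPM. Of the scratch-positive UMIs in this state, 1 cell held 12 of 42 for Prelp and 1 cell 13 of 24 for Podn. In the Serpinb2/Nos2 state Aspn and Prelp were lower, 2 members against 4.32% of 10655 genes, and none was higher, against 5.42%, with Dcn at 2368 against 2761 CPM and Bgn at 3553 against 3551 CPM. In mural-like cells only 3 members had enough UMIs to be tested. Of these, Bgn (1726 against 756 CPM) and Aspn (439 against 289 CPM) were higher, 2 members against 12.4% of 5409 genes. Dcn (39.9 against 356 CPM) was the 1 lower member, against 8.67%. Neutrophil markers in the mural-like cells summed to 35436 CPM in the scratch-negative and 1054 CPM in the scratch-positive library, with 0 and 3 of 10 at 0, and their part in the result was not tested. The summed proteoglycan level was thus lower in the Actg2/Cnn1 and cycling states (2.05-fold and 1.74-fold), within 1.5-fold in the Serpinb2/Nos2 and Cxcl5/Cxcl9 states, and 1.52-fold higher in mural-like cells.

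The share of biglycan among biglycan and decorin UMIs does not depend on the total of a cell set. It was 11.3% (10.3% to 12.4%, exact binomial) in control fibroblast-like cells, 49.4% (49.0% to 49.7%) in scratch-negative and 68.2% (67.7% to 68.8%) in scratch-positive cells. In the Clec3b/Pi16 state it was 7.97%, 16.7% and 13.2%, and in the Matn4/Sfrp2 state 13.4%, 39.4% and 45.9%. In both states the share in each tumour-bearing library lay above the control interval. Among the states scarce in control cells it was higher in the scratch-positive library in each, at 78.7% against 56.5% in the cycling state, 84.96% against 61.8% in the Actg2/Cnn1 state, 64.2% against 59.9% in the Cxcl5/Cxcl9 state and 60.0% against 56.3% in the Serpinb2/Nos2 state. In osteoblast-lineage cells the share was 31.1%, 27.1% and 30.3% in the 3 libraries, above the control and below the tumour-bearing values of the fibroblast-like class.

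**Figure D4:**
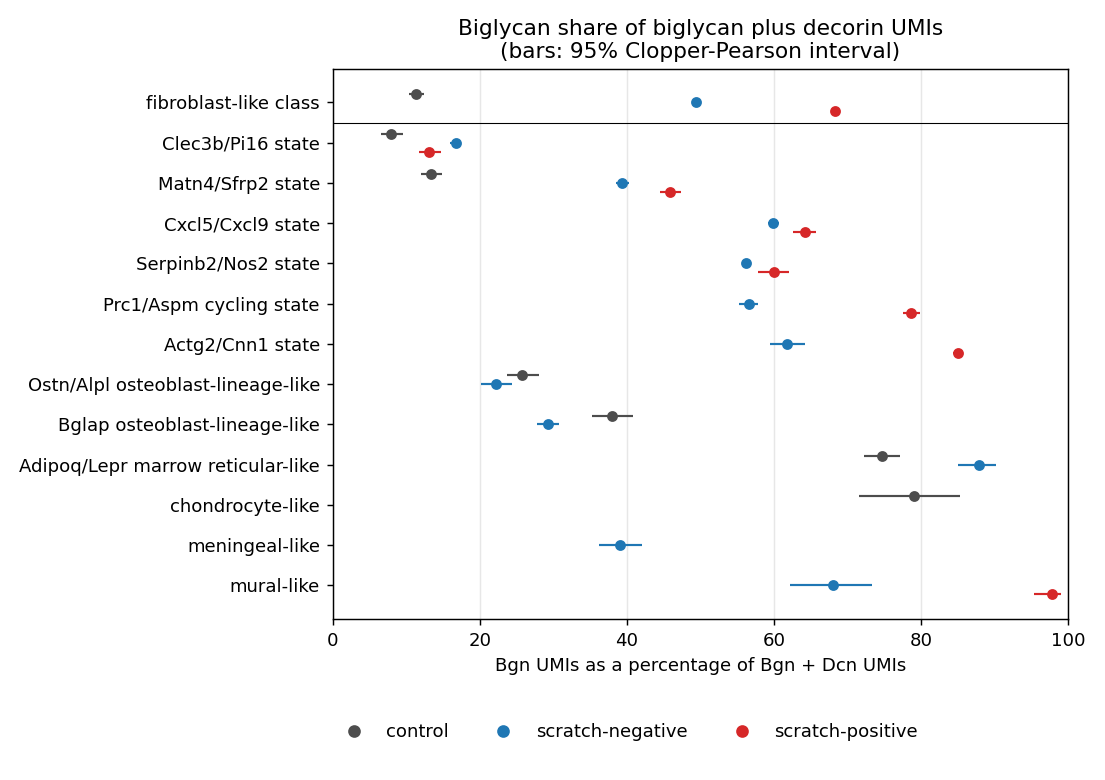
Bgn UMIs as a percentage of Bgn plus Dcn UMIs in the fibroblast-like class and in each stromal state with 10 or more cells, by library, with 95% Clopper-Pearson intervals as bars. Control points of the class, Clec3b/Pi16 and Matn4/Sfrp2 rows lie left of both tumour-bearing points.

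Single cells were compared after thinning each to 2000 UMIs, which left 28 control, 447 scratch-negative and 395 scratch-positive fibroblast-like cells. Dcn was then detected in 92.9%, 91.1% and 50.1% of cells, and Bgn in 60.7%, 95.5% and 91.1%. Without thinning the shares were 93.2%, 98.2% and 88.3% for Dcn and 70.5%, 98.5% and 98.8% for Bgn. In thinned neutrophils, whose median depth in the scratch-positive library was 8215 UMIs, Dcn was detected in 0.362%, 0.985% and 0.266% of cells and Bgn in 0.249%, 2.06% and 0.866%. The share of fibroblast-like cells with 3 or more of the 9 genes was 92.9% (76.5% to 99.1%), 79.4% (75.4% to 83.1%) and 46.8% (41.8% to 51.9%). Within the Clec3b/Pi16 and Matn4/Sfrp2 states this share was 92.3% or more in every library.

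Osteoblast-lineage cells, of which there were 30 control, 51 scratch-negative and 14 scratch-positive cells, differed in other members. In scratch-negative over control cells 3 members were lower, against 5.14% of 8067 genes, and 1 was higher, against 3.95%. Aspn was at 2517 CPM in the control, 947 CPM in the scratch-negative and 1290 CPM in the scratch-positive library. Fmod was at 368, 206 and 509 CPM and Prelp at 32.3, 6.42 and 117 CPM in that order, but 1 scratch-positive cell held 20 of the 27 Prelp UMIs. In the other libraries 1 cell held 8 of 15 control and 1 cell 4 of 6 scratch-negative Prelp UMIs, all in Ostn/Alpl cells. Bglap cells, which held 0 Aspn UMIs in both libraries and Fmod at 4.13 and 9.45 CPM, were 12 of the 30 control and 26 of the 51 scratch-negative cells. Within Ostn/Alpl cells Fmod was at 764 CPM in the control and 623 CPM in the scratch-negative library, which did not pass the call, and Aspn at 5259.6 and 2952 CPM. Omd was the higher member, at 254 CPM in the control and 479 CPM in the scratch-negative library. In scratch-positive over control cells 4 members (Dcn, Bgn, Lum and Aspn) were lower, against 4.55% of 5907 genes, and Prelp was the 1 higher member, against 8.84%. In scratch-positive over scratch-negative cells Fmod and Prelp were higher, 2 members against 7.15% of 7472 genes, and none was lower, against 2.88%. In Ostn/Alpl cells alone, Omd was the 1 higher member in scratch-negative over control cells (347 against 162 CPM), against 5.47% of 5918 genes, and Bgn, Aspn and Prelp were lower, 3 members against 2.92%. In Bglap cells, where only 4 members had enough UMIs to be tested, Omd was again the 1 higher member (542 against 338 CPM), against 5.22% of 5436 genes. None of the 4 was lower, against 3.83%. In the Ostn/Alpl state 1 cell held 45 of 104 scratch-negative Omd UMIs and 1 cell 14 of 36 in the control. Neutrophil markers summed to 2195 CPM in control and 12253 CPM in scratch-negative Bglap cells, and to 3924 and 4122 CPM in Ostn/Alpl cells, and their part in the result was not tested.

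Marrow reticular-like cells, the Adipoq and Lepr positive stroma of marrow, were compared between 44 control and 30 scratch-negative cells. Here 4 members were lower, against 3.31% of 7161 genes, and none was higher, against 4.73%. Dcn was at 703 against 329 CPM, Lum at 599 against 226 CPM, Ogn at 606 against 362 CPM and Omd at 194 against 94.5 CPM. Bgn, the most abundant member in these cells, was at 2082 against 2371 CPM. Omd thus differed in opposite directions in reticular-like and osteoblast-lineage cells, a contrast that was not itself tested.

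RNA of other cells differed between the libraries within the fibroblast-like class. The 10 neutrophil markers summed to 4287, 3000 and 846 CPM in control, scratch-negative and scratch-positive cells, with 1, 0 and 0 of them at 0. The 9 epithelial markers, which mark the carcinoma cells, summed to 14.7, 5.95 and 89.1 CPM with 7, 5 and 1 at 0, and Krt8 stood at 0, 1.34 and 29.9 CPM. The 10 monocyte and macrophage markers summed to 14.7, 18.0 and 15.3 CPM, with 7, 0 and 0 at 0. The 8 osteoclast markers, some of which fibroblasts also express, summed to 580, 392 and 534 CPM, with 3, 1 and 1 at 0. Their part in the class ratios was not tested. Without cells that held a Ptprc, Krt8 or Krt14 UMI (41, 386 and 210 cells left), the summed ratios were 0.493, 0.261 and 0.529. This filter used none of the neutrophil, macrophage or osteoclast markers of these lists. Deeper cells hold such a UMI more readily, and the filter left 41 of 44 control but 210 of 400 scratch-positive cells.

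Ogn and Omd were also counted in carcinoma cells. Of the scratch-positive UMIs, 55.7% of Ogn and 54.9% of Omd lay in stromal states, while tumour cells held 774 of 1915 Ogn and 136 of 339 Omd UMIs. Over 3782 tumour cells Ogn was at 3.1 CPM (2.88 to 3.32) and Omd at 0.544 CPM (0.456 to 0.644), and 386 and 109 cells had a UMI of each, 45 of them of both. In 1545 neutrophils of the same library both counts were 0, which allows levels of up to 0.192 CPM. The tumour cluster led by Clu had Ogn at 7.03 CPM in 19.7% of 1427 cells and Omd at 1.10 CPM in 5.12%. In the clusters led by Phlda2 and by Siah1b Ogn was at 0.562 and 0.676 CPM, and in the cluster led by Gbp4 at 4.002 CPM. Dcn, the leading stromal member of the control, was at 0.595 CPM in the Clu cluster, 0.702 and 1.16 CPM in the next pair, 0.457 CPM in the Gbp4 cluster and 0.767 CPM in neutrophils. The part of RNA from other cells in these levels was not tested. Aspn and Ecm2, which precede Omd and Ogn on chromosome 13, were at 0.195 and 0.0229 CPM in the Clu cluster. Cenpp, which overlaps Ogn and Omd on the other strand, was at 10.97 CPM there and at 15.4, 16.9 and 16.5 CPM in the clusters led by Phlda2, Siah1b and Gbp4. In the stroma of that library Ogn was at 532 CPM in the Matn4/Sfrp2 state and 425 CPM in the Clec3b/Pi16 state, with overlapping intervals, and between 22.3 and 57.0 CPM in the other fibroblast-like states.

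**Figure D5:**
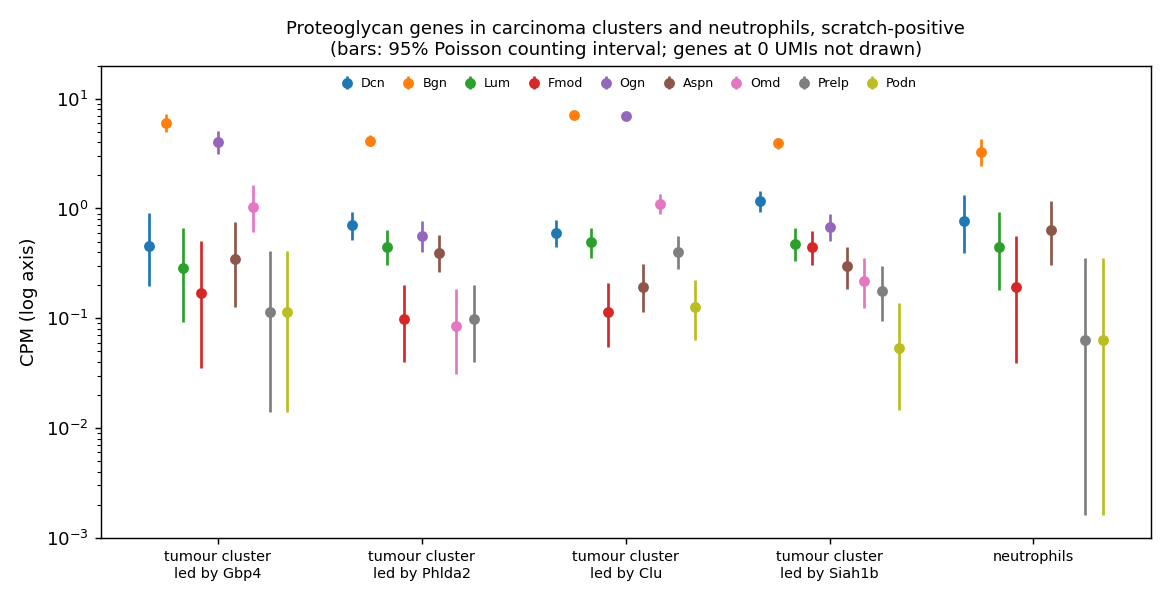
CPM of the 9 genes on a log axis in the 4 tumour clusters and in neutrophils of the scratch-positive library, with 95% Poisson counting intervals as bars and genes with 0 UMIs not drawn. Ogn in the Clu cluster is level with Bgn at about 7 CPM, whereas Dcn lies between 0.457 and 1.16 CPM in the tumour clusters.

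Other genes of the proteoglycan system were read in the fibroblast-like class from lists chosen for their roles, by the same rule as the members, and the backgrounds given above apply. Among 8 other genes of the family, 0 were higher and 2 lower of 7 tested in scratch-negative over control cells, against 6.42% and 15.5% of all genes. In scratch-positive over control cells 1 was higher and 2 lower, against 9.79% and 17.1%. Between the tumour-bearing libraries 2 were higher and 4 lower, against 11.2% and 15.2%. Chad (chondroadherin) was at 132 CPM in control, 8.18 CPM in scratch-negative and 4.54 CPM in scratch-positive cells. Ecm2 was at 103, 17.2 and 6.99 CPM. Podnl1, a relative of Podn, was 7.94-fold (1.42 to 315) the control level in scratch-positive cells, on 1 control UMI, and at 29.2 against 5.28 CPM between the tumour-bearing libraries, Tsku at 11.2 against 35.5 CPM and Epyc at 7.42 against 21.9 CPM. The list median was 1.27, 0.015 and -0.84 on the log2 scale, which for scratch-negative over control has the opposite sign to the counts.

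Enzymes that build the sugar chains were called in both directions. Of 31 tested, 4 were higher and 6 lower in scratch-negative over control cells, against 6.42% and 15.5% of all genes. In scratch-positive over control cells 5 were higher and 7 lower, against 9.79% and 17.1%. Between the tumour-bearing libraries 2 of 32 were higher and 5 lower, against 11.2% and 15.2%. No shift of the list is read from these counts. Chst2, a sulfotransferase, was 8.04-fold (1.43 to 318) and 17.9-fold (3.20 to 707) the control level, which rests on 1 UMI. Chst11, which sulfates chondroitin, was 7.04-fold (1.94 to 58.2) the control level in scratch-negative cells, on 2 control UMIs. Chst7 was at 14.7, 1.49 and 1.40 CPM in the 3 libraries, and Xylt1, which starts the chains, at 22.0 CPM in control against 2.97 CPM in scratch-positive cells. Ugdh, which makes a sugar precursor, was at 227 CPM in scratch-negative against 85.9 CPM in scratch-positive cells, and Xylt2 at 10.2 against 4.63 CPM. List medians were 0.34, 0.51 and -0.11.

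Collagens that the proteoglycans bind were more often higher than lower in tumour-bearing calvaria. Of 12 tested, 6 were higher and 2 lower in scratch-negative over control cells, against 6.42% and 15.5% of all genes. In scratch-positive over control cells 4 were higher and 1 lower, against 9.79% and 17.1%. List medians in these comparisons were 0.68 and 0.40. Between the tumour-bearing libraries 3 of 13 were higher and 2 lower, against 11.2% and 15.2%, with a median of -0.25. Col12a1 was at 386, 1495 and 1254 CPM in the 3 libraries, and Col6a3 at 338, 487 and 1095 CPM. Col5a3 was at 99.2 CPM in control and 316 CPM in scratch-negative cells. Col14a1, a fibril-associated collagen, was lower in each comparison, at 974, 371 and 75.02 CPM. Col11a1 was the other lower collagen in scratch-negative over control cells, at 158, 71.0 and 172 CPM in the 3 libraries. Between the tumour-bearing libraries the other lower collagen was Col3a1, at 7681 against 16426 CPM, which is named here because it completes the count.

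Proteases that process or cut the matrix were mixed. Of 14 tested, 3 were higher and 5 lower in scratch-negative over control cells, against 6.42% and 15.5% of all genes. Of 16 tested, 4 were higher and 6 lower in scratch-positive over control cells, against 9.79% and 17.1%. Between the tumour-bearing libraries 6 of 16 were higher and 4 lower, against 11.2% and 15.2%. List medians were -0.66, -0.35 and -0.02. Pcolce2, an enhancer of procollagen processing, was at 544, 46.4 and 33.4 CPM, and Htra1 at 933, 342 and 303 CPM. Tll1 was at 22.0 CPM in control and 4.98 CPM in scratch-negative cells, Adamts5 at 345 CPM in control and 46.1 CPM in scratch-positive cells. Mmp3 was at 20.7 CPM in scratch-positive against 99.8 CPM in scratch-negative cells. Gzmb, a granzyme of cytotoxic lymphocytes, and Mmp12 were 92.8-fold (25.3 to 773) and 6.46-fold (1.41 to 60.0) higher there, each on 2 scratch-negative UMIs.

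Receptors and growth factors that bind these proteins were mixed as well. Of 19 tested, 4 were higher and 5 lower in scratch-negative over control cells, against 6.42% and 15.5% of all genes. Of 18 tested, 5 were higher and 7 lower in scratch-positive over control cells, against 9.79% and 17.1%. Between the tumour-bearing libraries 5 of 19 were higher and 6 lower, against 11.2% and 15.2%. List medians were 0.06, -0.32 and -0.23. Bmp4 was at 73.5, 6.17 and 12.2 CPM. Tgfb1 was 4.98-fold (1.37 to 41.2) and 7.73-fold (2.13 to 63.9) the control level, on 2 control UMIs, and Tgfb2 was at 46.1 CPM in scratch-negative and 163 CPM in scratch-positive cells. Met was at 18.4 CPM in control and 2.31 CPM in scratch-negative cells. Tlr4 was 9.01-fold (1.66 to 32.3) lower in scratch-positive than in control cells, on 3 control UMIs, and Itga2 was at 0.699 against 4.02 CPM between the tumour-bearing libraries. Of 18 other proteoglycans tested, 2 were higher and 6 lower in scratch-negative over control cells. In scratch-positive over control cells 2 were higher and 7 lower, and between the tumour-bearing libraries 1 and 9. The same shares of all genes apply, and the list medians were -0.11, -0.90 and -0.60. Prg4 (lubricin) was at 419, 141 and 27.8 CPM, Gpc6 at 99.2, 24.8 and 17.6 CPM, and Spock2 at 66.1 CPM in control and 5.36 CPM in scratch-negative cells. Acan (aggrecan) was at 25.7, 6.02 and 13.4 CPM, and Esm1 at 14.1 CPM in scratch-negative and 3.23 CPM in scratch-positive cells.

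The members followed different patterns over the 9 state and library combinations with 40 or more cells, which share libraries and are not independent. Pearson correlations of log2(CPM + 10) were 0.95 for Dcn with Lum, 0.92 for Ogn with Podn and 0.68 for Dcn with Bgn. Among the neighbours on chromosome 13 they were 0.50 for Omd with Ogn, 0.23 for Aspn with Ogn and -0.54 for Aspn with Omd. Of 8662 genes compared, those most like Dcn were Ifi27l2a (0.96), Parm1 (0.93) and Serpina3n (0.93), and those most like Bgn were P3h3 (0.97), Zfyve21 (0.95) and Col16a1 (0.90). Fmod was most like Clec11a (0.98), Neo1 (0.97) and Cdkn1c (0.94), and Omd most like Kmt2e (0.98), Myo6 (0.98) and Baz2b (0.96). With 9 points and this many genes, high values arise readily and are given as a description.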

How the data were processed

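Single-cell 3' RNA libraries from 3 groups of calvaria were deposited as filtered matrices of UMI counts per gene and cell. Per the file headers, the authors' counts came from Cell Ranger (version 6.1.2). The genome build was mm10, per the submitters' processing notes. From the counts, barcodes with at least 500 genes and at most 10% mitochondrial UMIs were kept, and the highest Scrublet scores were removed at 0.8% per 1000 barcodes of a library. Cells were clustered with scanpy 1.11.5 (2000 variable genes without the 9 members, 30 principal components, 15 neighbours, Leiden resolution 1.0) and named from marker lists that hold no member. Stromal cells were clustered again (20 components, resolution 0.5). Sub-clusters led by immune genes were left out, and the rule for placing sub-clusters in a class was set after the clusters were seen.

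UMIs were summed per cell set and library and divided by the total of the set (CPM). Levels carry exact Poisson intervals, shares Clopper-Pearson intervals and ratios exact conditional binomial intervals (scipy 1.17.1), all at 95%. A count of 0 UMIs allows 3 UMIs of the total, a limit that lies below the upper end of the Poisson interval. PCR duplicates are collapsed by UMI, and intervals cover counting error only. Combinations of state and library with under 10 cells are not shown. The calling rule was tested on simulated counts that held counting error only, so that test cannot cover variation between mice or cells. All 9 members are named, and of each list the up to 3 called genes with the largest log2 ratio in a comparison. The genes most like Dcn, Bgn, Fmod and Omd were those with the highest correlation of log2(CPM + 10). The members and the lists were chosen with earlier results of these data known. Alternatives covered the gene minimum, doublets, variable genes, resolution, cells with immune or epithelial UMIs, scaling, weighting of cells and states, and the thresholds of the call.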

Additional observations from a re-analysis of the deposited data

Results flagged for a closer look

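Several members differed in opposite directions in different stromal states under the same comparison, and these differences between states were not themselves tested. In scratch-negative over control cells the ratio of Bgn was 2.12 in the Clec3b/Pi16 state and 1.53 in the Matn4/Sfrp2 state, against 0.638 in Ostn/Alpl osteoblast-lineage cells. The ratio of Aspn was 1.61 in the Clec3b/Pi16 state against 0.561 in Ostn/Alpl cells, and that of Prelp 1.83 against 0.297. In Ostn/Alpl cells Prelp rests on 15 control UMIs, 8 of them in 1 cell, and 6 scratch-negative UMIs, 4 of them in 1 cell. The ratio of Omd was 2.14 in Ostn/Alpl cells and 1.60 in Bglap cells, against 0.488 in marrow reticular-like cells. In scratch-positive over control cells Aspn was at 1.82 in the Clec3b/Pi16 state against 0.593 in the Matn4/Sfrp2 state, and Podn at 2.44 against 0.501.

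Between the tumour-bearing libraries the ratio of Aspn was 1.52 in mural-like cells, against 0.452 in the Cxcl5/Cxcl9 state and 0.606 in the Serpinb2/Nos2 state. The ratio of Prelp was 1.74 in the Cxcl5/Cxcl9 state, where 1 scratch-positive cell held 12 of 42 UMIs. It was 0.239 in the Prc1/Aspm cycling state and 0.316 in the Serpinb2/Nos2 state. In the Actg2/Cnn1 state it was 0.174, where 1 scratch-negative cell held 8 of 14 UMIs. The ratio of Podn was 2.95 in the Cxcl5/Cxcl9 state, where 1 scratch-positive cell held 13 of 24 UMIs, against 0.556 in the Matn4/Sfrp2 state and 0.327 in the cycling state. Outside the stroma, Ogn at 3.1 CPM and Omd at 0.544 CPM in scratch-positive tumour cells stood above the limit that their 0 UMIs in neutrophils allow, 0.192 CPM.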

How the results depend on the processing

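Each summed ratio is given for scratch-negative over control, scratch-positive over control and scratch-positive over scratch-negative cells in turn, against 0.396, 0.196 and 0.494 as reported. All stayed below 1 under every alternative run. They were 0.374, 0.187 and 0.5003 with at least 1000 genes per cell, where the scratch-positive biglycan share was 66.9%. With at least 200 genes they were 0.478, 0.225 and 0.470, 1 member was higher between the tumour-bearing libraries, and the biglycan shares of the 3 libraries were 12.7%, 50.04% and 71.1%. Without doublet removal the last ratio was 0.504, and with the members among the variable genes the first pair was 0.374 and 0.183. At Leiden resolution 2.0, which left 14 control cells, the first ratio was 0.441 and the last 0.444, 1 member was higher in scratch-positive over control cells and 2 over scratch-negative cells, and the biglycan shares were 8.51%, 50.9% and 73.8%. Fmod had no control UMI there and gave no value. Without cells that held Ptprc, Krt8 or Krt14 the ratios were 0.493, 0.261 and 0.529, with biglycan shares of 48.8% and 65.8% in the tumour-bearing libraries. Median scaling gave 0.435 and 0.210 over the control. Means of per-cell CPM gave 0.611, 0.312 and 0.511, with 5 members lower in scratch-negative over control cells. Equal weight per state gave 0.749, 0.715 and 0.883 with 1, 3 and 3 members lower, and reversed Prelp (1.29 and 1.07 over the control) and Podn (1.47 and 1.13). Over the control these values cover the Clec3b/Pi16 and Matn4/Sfrp2 states only. At a 2-fold threshold 0 members were higher in scratch-negative over control cells. An alternative chosen after seeing the data took every cell of the clusters first named fibroblast (70, 648 and 480 cells). It thus put back mixed sub-clusters and also cells placed in other stromal classes. The last ratio was then 0.517 and the biglycan shares were 16.7%, 48.9% and 66.2%. Of 268 single-member ratios under the alternatives, 128 moved by less than their interval, 136 by more, and 4 reversed. The causes of these shifts were not tested, nor was the effect of fewer cells where cells were left out. No paired analysis was possible because each group is 1 library. The 44 control cells, with 272209 UMIs, limit every ratio to the control, most of all for Omd.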
